A study of Homo sapiens with 6 samples.

Results

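The factors described here are 28 genes of 11 families of developmental transcription factors in OVCAR8, a cell line from human high grade serous ovarian cancer. A gene qualified if its symbol was that of a HOX, SOX, FOX, GATA, PAX, TBX, LHX, MEIS, PBX, KLF or sine oculis (such as SIX4) gene (FOXM1 was left out) and its value was at least 10 in at least 2 of the 6 samples. The deposited matrix lists 14930 genes, of which 9671 pass this limit on values, and 101 symbols of these families, of which 30 pass and 71 do not. Of the 30, 28 are analysed here and are called members below. They are 9 KLF genes, 7 FOX genes, 2 each of HOX, PBX and SOX, and 1 each of GATA, LHX, MEIS, PAX, TBX and the sine oculis family.

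RNA-Seq was performed on 3 groups of 2 replicates, all collected after 72 hours. The control cells are labelled as control (the protocol names DMSO), the DZNep cells received 5 μM of 3-deazaneplanocin A, a compound that lowers the amount of EZH2 protein, and the shEZH2 cells expressed an EZH2 hairpin induced with 1 μg/mL doxycycline (the labels print mM and mg/mL, the methods μM and μg/mL). A single hairpin was used, and the sources do not say whether the control cells carried a hairpin or received doxycycline, so the hairpin, the line and doxycycline cannot be told apart. The replicates are not stated to come from separate cultures, so p-values measure the spread between these samples, which may be technical. The unit is a whole number per gene and sample that sums to between 999956 and 1000068 in each sample, so the values had been scaled and read depth is unknown. The sources do not state whether the values are per length, so levels of different genes may not share a scale. Sums over genes, the parts of such sums and the choice of the highest member of a family carry this limit. Fold changes were taken on log2(value + 1) after TMM scaling (factors from 0.92 to 1.12), which understates the change of low genes, and a change passed the test at a limma adjusted p under 0.05 over the 9671 tested genes.

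HOX genes lie in 4 clusters and give cells their position along the body axis, and the TALE proteins MEIS and PBX bind DNA together with them. EZH2 is the methyltransferase of polycomb repressive complex 2 (PRC2), which marks histone H3 at lysine 27 and is best known for keeping developmental regulators such as HOX, GATA, SOX and FOX genes silent outside their own tissues. PRC2 gathers mainly at promoters rich in CpG dinucleotides. PAX8 marks the Müllerian lineage from which serous ovarian cancer arises, and KLF factors, which bind CACCC and GC boxes, control growth and differentiation in many epithelia.

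EZH2 itself had values of 36 and 42 in the controls, 26 and 26 under DZNep and 18 and 18 under shEZH2. It was lower in every treated sample than in both controls, with a log2 fold change of -0.63 with DZNep (SE 0.18, n = 2 per group, limma adjusted p = 0.026, where SE is the standard error of the fit) and -1.12 with shEZH2 (SE 0.18, limma adjusted p = 0.016). Across genes, replicates differed on the log2 scale with a standard deviation of 0.43 (control), 0.45 (DZNep) and 0.14 (shEZH2). The shEZH2 samples were thus much closer to each other than the other pairs. Without read counts it could not be tested whether they are separate libraries, so calls with shEZH2 are given also with them counted as 1 sample. That left 10 genes higher and 29 lower of the 9671, against 378 and 438, and the adjusted p of EZH2 was then 0.19 at the same log2 fold change.

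Promoters of 4 members that passed the test are printed as examples that differ in CpG content: HOXD13, GATA2 and KLF2, which were higher with DZNep, and MEIS3, which was lower. Each line gives the 250 bases before the gene start on the gene's own strand, 5′ to 3′, from RefSeq (GRCh38.p14), with every CpG in capitals.
HOXD13: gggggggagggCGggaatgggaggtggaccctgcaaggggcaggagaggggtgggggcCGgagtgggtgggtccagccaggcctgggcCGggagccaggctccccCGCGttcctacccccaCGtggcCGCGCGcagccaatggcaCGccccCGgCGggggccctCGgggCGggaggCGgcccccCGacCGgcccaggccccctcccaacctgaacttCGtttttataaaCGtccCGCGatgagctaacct
GATA2: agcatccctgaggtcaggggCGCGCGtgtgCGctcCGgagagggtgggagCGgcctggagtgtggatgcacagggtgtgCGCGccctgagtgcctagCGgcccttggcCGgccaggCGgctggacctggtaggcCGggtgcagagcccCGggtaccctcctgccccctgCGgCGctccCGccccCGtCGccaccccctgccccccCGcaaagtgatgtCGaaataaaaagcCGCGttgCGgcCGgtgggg
KLF2: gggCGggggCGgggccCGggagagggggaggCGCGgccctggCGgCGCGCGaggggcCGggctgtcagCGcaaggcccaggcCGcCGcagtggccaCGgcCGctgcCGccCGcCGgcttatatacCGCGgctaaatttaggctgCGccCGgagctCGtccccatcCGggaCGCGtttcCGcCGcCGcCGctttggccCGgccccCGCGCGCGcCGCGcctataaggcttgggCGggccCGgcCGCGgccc
MEIS3: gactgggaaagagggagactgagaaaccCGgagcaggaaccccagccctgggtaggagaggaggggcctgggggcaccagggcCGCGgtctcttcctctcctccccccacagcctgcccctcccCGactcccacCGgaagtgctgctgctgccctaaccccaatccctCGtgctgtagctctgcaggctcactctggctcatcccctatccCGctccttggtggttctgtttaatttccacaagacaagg
The windows are chr2:176092471-176092720 (plus strand), chr3:128493202-128493451 (minus strand), chr19:16324576-16324825 (plus strand) and chr19:47419528-47419777 (minus strand). They held 21 CpGs in HOXD13, 24 in GATA2, 41 in KLF2 and 7 in MEIS3, and the GC content was 74.0%, 72.8%, 80.0% and 63.2%. The ratio of observed to expected CpGs was 0.62, 0.73, 1.03 and 0.29, so the printed MEIS3 window was the poorest in CpGs of the 4. The GC box GGGCGG, searched on both strands, occurred 2 times in the HOXD13, 1 time in the GATA2 and 4 times in the KLF2 window, and the KLF box CACCC occurred 2 times in HOXD13 and 4 times in GATA2.

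Over windows of 300 bases (250 before and 50 after the start), 24 of the 28 members matched, with 33 windows. FOXN2, HOXB9, KLF10 and KLF3 were not matched. The median was 33 CpGs in the members' windows, 26 in the 10808 windows of tested genes and 14 in all 35116 windows. A GC content of at least 50% with an observed to expected ratio of at least 0.6 was met by 72.7% of the members' windows, 77.7% of those of tested genes and 46.9% of all. GGGCGG was found in 75.8%, 68.8% and 45% of these windows, CACCC in 69.7%, 63.6% and 59.9%, and the GATA motif AGATAA in 0.0%, 5.2% and 10.3%. CpG content did not follow the direction of change in every called member, as PBX3, which was lower with DZNep, had 43 CpGs at a ratio of 0.99, and SOX4, which was higher, had 8 at 0.49. No test was made of these differences.

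With DZNep, 10 of the 28 members were higher than in control cells and 4 were lower, and 14 did not pass the test. Among all tested genes 22.4% were higher and 20.4% were lower (2163 and 1971 genes). The shEZH2 samples enter these DZNep calls through the shared estimate of the spread. In a fit of only the control and DZNep samples, 8 members were higher and 3 lower, and 1531 and 1513 of the 9671 tested genes. With shEZH2, 3 members were higher and 0 lower (7 and 3 at an unadjusted p under 0.05), against 3.91% and 4.53% of all tested genes. The 3 genes that were higher with shEZH2, namely GATA2, KLF10 and KLF2, were also higher with DZNep, and these contrasts share their control samples. The median log2 fold change of the members was 0.30 with DZNep and 0.14 with shEZH2, and that of all tested genes was 0.02 and -0.01. Requiring in addition an absolute log2 fold change above 1, DZNep left 6 members higher and 2 lower (10.5% and 11.7% of all tested genes). With shEZH2 this left 2 higher and 0 lower (2.02% and 2.73%). Of these higher members, FOXN3, HOXD13, KLF10, KLF2 and KLF4 had both controls under 10. They were members only through treated samples, so the limit on values shaped the counts and medians above. Over the 17 members with at least 10 in all 6 samples, 3 were higher and 3 lower with DZNep, and 0 passed with shEZH2.

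With the shEZH2 samples counted as 1, or with either left out, 0 members passed with shEZH2 (4 higher at an unadjusted p under 0.05 with the averaged samples). The adjusted p from limma with the averaged samples was 0.29 for GATA2, 0.11 for KLF10 and 0.27 for KLF2, at unchanged log2 fold changes of 0.93, 1.60 and 1.03. Calls over all genes fell in the same fit, as given above. These fits have fewer samples, and what the closeness of the shEZH2 samples adds to the calls was not tested. Without control replicate 2, KLF10 passed, while the adjusted p was 0.054 for GATA2 and 0.081 for KLF2.

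**Figure D1:**
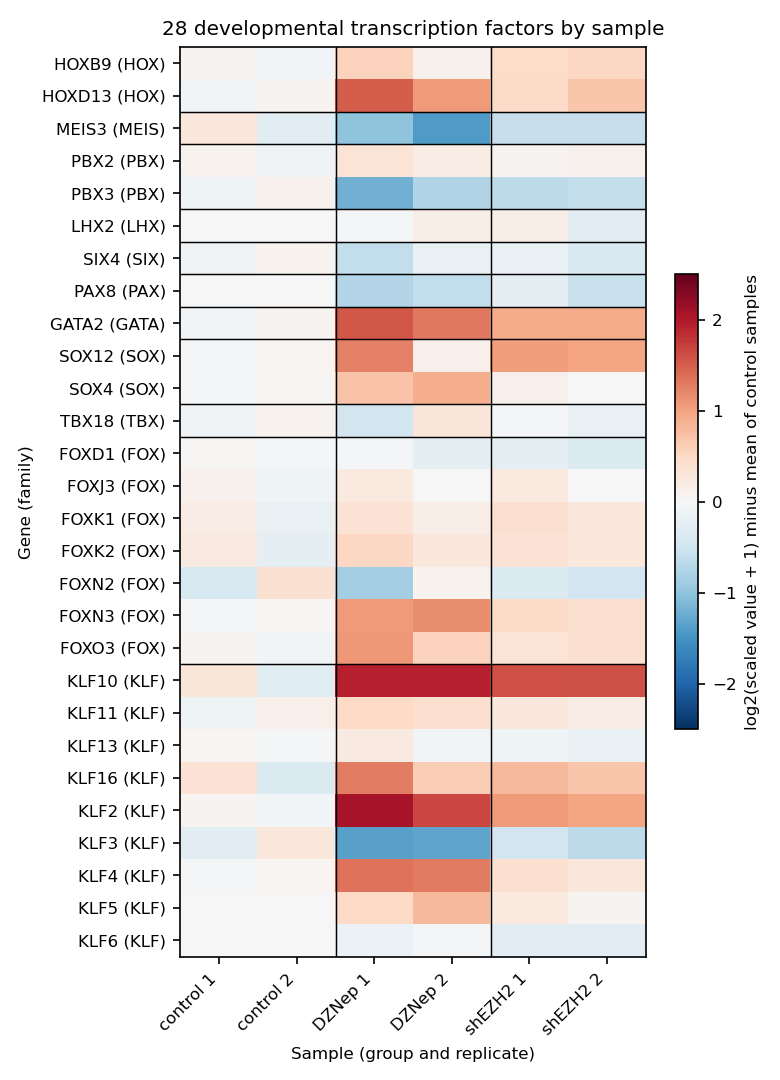
Each row is a member, grouped by family, and each column a sample; colour gives log2(scaled value + 1) minus the mean of the control samples, from blue (lower) to red (higher). KLF10 and KLF2 are the strongest red rows, at 1.95 in DZNep sample 1 for KLF10, and KLF3, MEIS3 and PBX3 are the strongest blue rows in the DZNep samples.

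**Figure D2:**
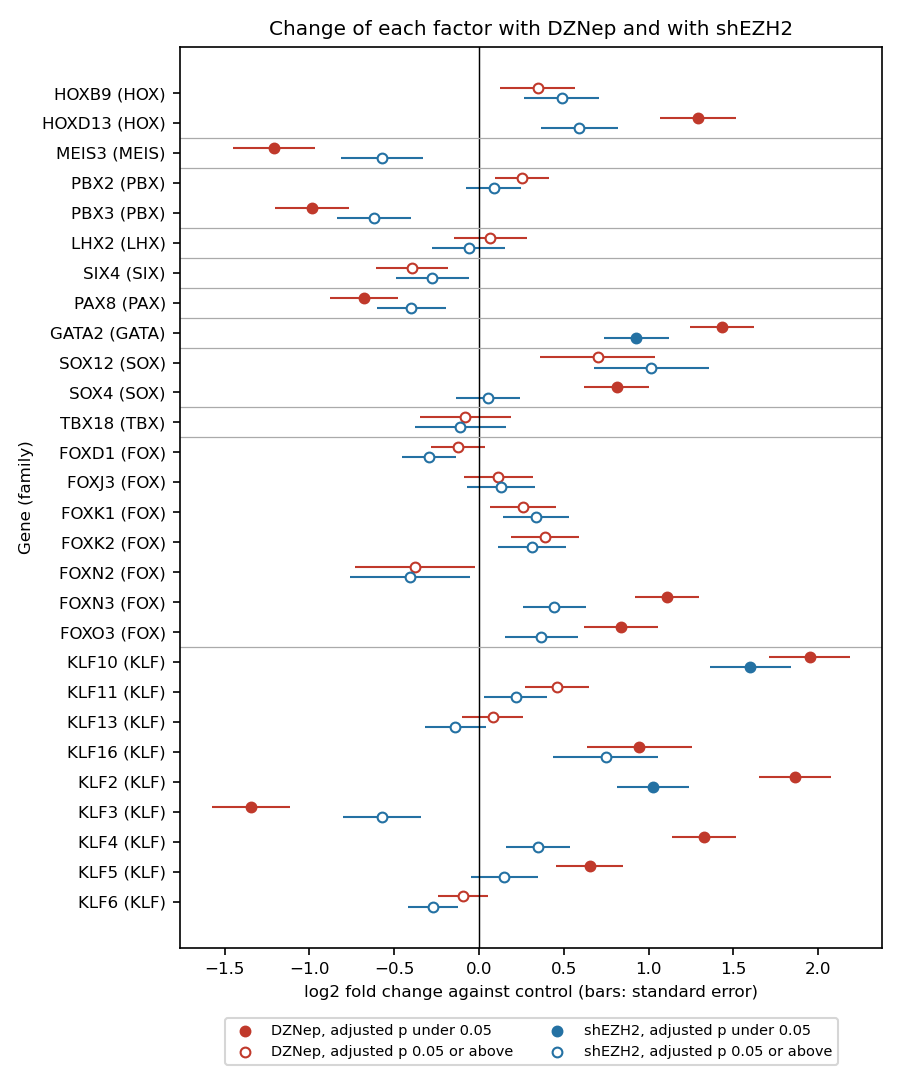
Points give the log2 fold change of each member against control with DZNep (red) and shEZH2 (blue), bars give the standard error, and filled points passed at a limma adjusted p under 0.05. The 10 filled red points on the right and 4 on the left are the DZNep calls, and the 3 filled blue points are GATA2, KLF2 and KLF10.

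HOXD13, the last gene of the HOXD cluster and a patterning factor of digits and genital tract, had values of 4 and 5 in the controls, 14 and 12 under DZNep and 7 and 8 under shEZH2. The 3 groups did not overlap, with DZNep highest and shEZH2 between. Its log2 fold change was 1.29 with DZNep (2.45-fold, SE 0.23, limma adjusted p = 0.0032) and 0.59 with shEZH2 (adjusted p = 0.13). It passed the limit of 10 only through the DZNep samples. The gene has 2 exons and lies at chr2:176092721-176095944 on the plus strand of GRCh38. HOXB9, a posterior HOXB gene, had values of 8 and 8 in the controls, 12 and 10 under DZNep and 12 and 12 under shEZH2. All treated samples were above both controls, yet neither log2 fold change passed (0.35, adjusted p = 0.24, and 0.49, adjusted p = 0.20, from limma). HOXB9 overlaps HOXB7 on the same strand, so reads shared by the pair may have been split between them.

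The other 26 listed HOX genes had values of at most 11 in any sample and at most 6 in control cells. Summed over all listed genes of each cluster, HOXB9 and HOXD13 included, the values of HOXA (5 genes) were 7 and 9 in the controls, 15 and 18 under DZNep and 10 and 9 under shEZH2. HOXB (7 genes) summed to 24 and 22, 43 and 41, and 39 and 35, and HOXC (8 genes) to 12 and 11, 24 and 26, and 22 and 20. HOXD (8 genes) summed to 14 and 18, 35 and 40, and 25 and 24. Without HOXB9 the HOXB sums were 16 and 14, 31 and 31, and 27 and 23, and without HOXD13 the HOXD sums were 10 and 13, 21 and 28, and 18 and 16. In each of the 4 clusters, with or without these members, both DZNep samples were above both controls. The shEZH2 samples were above both controls in HOXB, HOXC and HOXD, and touched the controls in HOXA.

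In a fit with no filter on low values, over all 14930 genes, 12 of these 26 HOX genes were higher with DZNep and 0 lower, against 18.3% and 17.2% of all genes, and their median log2 fold change was 0.74. With shEZH2, 0 were higher and 0 lower in limma (9 and 0 at an unadjusted p under 0.05), against 2.28% and 2.66% of all genes, with a median of 0.40. HOXB6, a trunk patterning gene, had values of 1 and 1 in the controls, 5 and 4 under DZNep and 3 and 2 under shEZH2, a log2 fold change of 1.41 with DZNep (limma adjusted p = 0.0056 in this fit). HOXD9, a limb patterning gene, had 1 and 2, 5 and 6, and 3 and 3, a log2 fold change of 1.36 (adjusted p = 0.0049). HOXA10, a regulator of the uterus, had 2 and 2, 4 and 6, and 3 and 3, a log2 fold change of 0.92 (adjusted p = 0.014). These 3 were chosen after their values were seen. Groups did not overlap in any of the 3, with shEZH2 between the others, but values of this size are coarse after rounding to whole numbers, and the part of rounding in the calls was not tested.

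**Figure D3:**
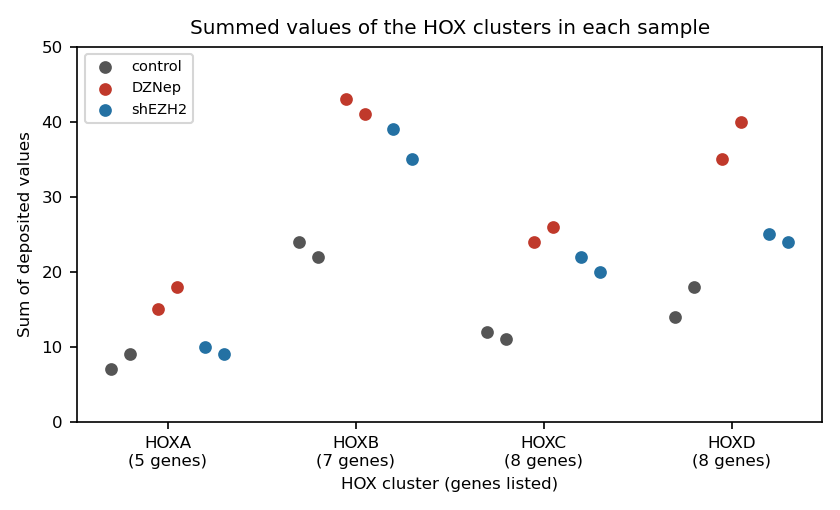
Points give the sum of the deposited values of all listed genes of each HOX cluster (horizontal axis) in each sample, with control in grey, DZNep in red and shEZH2 in blue. The DZNep sums of 35 and 40 in HOXD stand above the control sums of 14 and 18, and the shEZH2 sums of 25 and 24 lie between them.

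Of the 3 TALE cofactors of HOX proteins among the members, MEIS3 and PBX3 were lower with DZNep, against 20.4% of all tested genes. With shEZH2, 0 of the 3 passed, against 3.91% higher and 4.53% lower of all tested genes. MEIS3 had values of 39 and 30 in the controls, 16 and 14 under DZNep and 24 and 23 under shEZH2. Every treated sample was below both controls, and DZNep was the lowest group. On the log2 scale it changed by -1.21 with DZNep (2.31-fold lower, SE 0.24, limma adjusted p = 0.0056) and -0.57 with shEZH2 (adjusted p = 0.17). The gene, with 13 exons, lies at chr19:47403124-47419527 on the minus strand. PBX3, a PBX protein that stabilises HOX on DNA, had values of 20 and 26 in the controls, 9 and 15 under DZNep and 15 and 15 under shEZH2. No treated sample reached the controls, and the log2 fold change was -0.98 with DZNep (limma adjusted p = 0.0087) and -0.62 with shEZH2 (adjusted p = 0.11). PBX2, the broadly expressed member, had 96 and 95 in the controls, 116 and 124 under DZNep and 106 and 104 under shEZH2. The groups were apart, but the log2 fold changes of 0.25 and 0.09 did not pass (limma adjusted p = 0.24 and 0.76).

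Among the paired-box, LIM and sine oculis factors, PAX8 passed with DZNep. It had values of 17 and 19 in the controls, 10 and 13 under DZNep and 16 and 12 under shEZH2, so that all treated samples lay below both controls. Its log2 fold change was -0.68 with DZNep (1.60-fold lower, SE 0.20, limma adjusted p = 0.028) and -0.40 with shEZH2 (adjusted p = 0.24). The DZNep call was lost in 8 of the alternatives tried, with an adjusted p of at most 0.08, among them without control replicate 1 (0.056), without control replicate 2 (0.075), without DZNep replicate 1 (0.078) and without either shEZH2 replicate (0.08), which enter through the shared estimate of the spread. The antisense gene PAX8-AS1 overlaps PAX8, and the sources do not say whether strand was used in the counting.

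LHX2, a forebrain and eye regulator, had values of 8 and 9 in the controls, 8 and 11 under DZNep and 10 and 7 under shEZH2, with full overlap of the groups. It was a member through 1 DZNep and 1 shEZH2 sample. SIX4, a factor of muscle and kidney development, had 23 and 29, 16 and 26, and 24 and 20, and the groups overlapped. The log2 fold changes of SIX4 were -0.39 with DZNep and -0.28 with shEZH2 (limma adjusted p = 0.17 and 0.44).

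GATA2, a regulator of blood stem cells that also acts in the endometrium, was higher with both treatments. Its values were 9 and 11 in the controls, 30 and 30 under DZNep and 21 and 20 under shEZH2. The groups were well apart and ordered, with shEZH2 between control and DZNep. The fitted log2 change was 1.43 with DZNep (2.70-fold, SE 0.19, limma adjusted p = 0.00095) and 0.93 with shEZH2 (1.90-fold, adjusted p = 0.028). The gene, with 6 exons, lies at chr3:128479427-128493201 on the minus strand and is overlapped by GATA2-AS1 on the other strand.

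Both SOX members belong to the SOXC group, which acts in neural and mesenchymal progenitors. SOX4 had values of 12 and 14 in the controls, 21 and 29 under DZNep and 15 and 13 under shEZH2. DZNep stood above the other groups, which overlapped. The log2 fold change of SOX4 was 0.81 with DZNep (1.75-fold, SE 0.19, limma adjusted p = 0.011) and 0.06 with shEZH2 (adjusted p = 0.87). SOX12 had 5 and 6 in the controls, 14 and 7 under DZNep and 13 and 12 under shEZH2. Its DZNep samples differed from each other 2-fold, and neither the DZNep change of 0.70 (limma adjusted p = 0.13) nor the shEZH2 change of 1.02 (adjusted p = 0.10) passed. The DZNep change of SOX12 was 1.27 without DZNep replicate 2 but 0.13 without DZNep replicate 1, so it rested on the DZNep sample at 14. Its shEZH2 change stayed at 1.02 in both fits. SOX12 gained a call with shEZH2 in 4 of 15 alternatives and with DZNep in 2. It was called higher with shEZH2 in a fit of only control and shEZH2 samples (limma adjusted p = 0.013). A fit blocked on replicate number called SOX12 higher with shEZH2 (adjusted p = 0.0011) and with DZNep (0.012). That fit assumes a replicate difference which the shEZH2 samples did not show. TBX18, a T-box factor of the heart and ureter, had 18 and 23, 14 and 29, and 21 and 18, and its widely spread DZNep samples enclosed all others.

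Of the 7 FOX members, FOXN3 and FOXO3 (28.6%) were higher with DZNep, near the 22.4% of all tested genes. No FOX member was called with shEZH2, against 3.91% higher and 4.53% lower of all tested genes. FOXN3, a forkhead repressor tied to the cell cycle, had 6 and 7 in the controls, 14 and 18 under DZNep and 10 and 9 under shEZH2. The 3 groups were apart, and the log2 fold change was 1.11 with DZNep (2.16-fold, SE 0.19, limma adjusted p = 0.0027) and 0.45 with shEZH2 (adjusted p = 0.17).

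FOXO3, a forkhead factor held back by AKT signalling, had values of 20 and 20 in the controls, 42 and 35 under DZNep and 27 and 27 under shEZH2, with no overlap of groups. Its log2 fold change was 0.84 with DZNep (limma adjusted p = 0.016) and 0.37 with shEZH2 (adjusted p = 0.30). The DZNep call was lost without control replicate 2 (adjusted p = 0.053) and without DZNep replicate 1 (0.068). FOXD1, a factor of kidney stroma, had 115 and 122 in the controls, 111 and 117 under DZNep and 106 and 94 under shEZH2. The shEZH2 samples were lowest, but the log2 fold changes of -0.13 and -0.29 did not pass (limma adjusted p = 0.55 and 0.27). FOXJ3, FOXK1, FOXK2 and FOXN2 did not pass in either contrast, with log2 fold changes from -0.38 to 0.39 with DZNep and from -0.41 to 0.34 with shEZH2. For FOXK2 the DZNep change was 0.39 over all samples (limma adjusted p = 0.15) and 0.61 without control replicate 1.

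Of the 9 KLF members, 5 were higher with DZNep and 1 lower, and 2 were higher with shEZH2, against 22.4% higher and 20.4% lower of all tested genes with DZNep and 3.91% higher with shEZH2. The median log2 fold change of the family was 0.65 with DZNep and 0.22 with shEZH2. KLF10, KLF2 and KLF4 had both controls under 10 and were members only through treated samples, so the limit on values shaped these counts and medians. Among the KLF members at 10 or more in all 6 samples, only KLF5 was higher and only KLF3 lower with DZNep. KLF10, an early response gene of TGF-β signalling, had values of 6 and 4 in the controls, 21 and 25 under DZNep and 18 and 17 under shEZH2. All treated samples were far above the controls, and DZNep above shEZH2. On the log2 scale it changed by 1.95 with DZNep (3.86-fold, SE 0.24, limma adjusted p = 0.00072) and 1.60 with shEZH2 (3.03-fold, adjusted p = 0.014). KLF2, which maintains quiescence in endothelium and T cells, had 4 and 4 in the controls, 19 and 17 under DZNep and 10 and 9 under shEZH2. Its groups did not overlap, and the log2 fold change was 1.86 with DZNep (3.63-fold, SE 0.21, limma adjusted p = 0.00053) and 1.03 with shEZH2 (2.04-fold, adjusted p = 0.029). From the deposited means, rounding alone leaves the DZNep ratio of KLF10 between 4.09 and 5.22 and that of KLF2 between 3.89 and 5.29.

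KLF4, a pluripotency factor that also drives epithelial differentiation, had values of 5 and 6 in the controls, 15 and 17 under DZNep and 8 and 7 under shEZH2. The shEZH2 samples lay just above the controls and well below DZNep. The log2 fold change of KLF4 was 1.33 with DZNep (2.5-fold, SE 0.19, limma adjusted p = 0.0013) and 0.35 with shEZH2 (adjusted p = 0.27). KLF3, a repressor that recruits CtBP, moved the other way, with 28 and 47 in the controls, 13 and 16 under DZNep and 27 and 23 under shEZH2. All treated samples were below both controls, which themselves differed widely. The log2 fold change of KLF3 was -1.34 with DZNep (2.54-fold lower, SE 0.23, limma adjusted p = 0.0029). With shEZH2 it was -0.57 (limma adjusted p = 0.15). The shEZH2 change was -0.86 without control replicate 1 but -0.29 without control replicate 2. Among fits of all samples, only the one blocked on replicate number called KLF3 lower with shEZH2 (limma adjusted p = 0.034).

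KLF5, a growth factor-induced regulator of epithelia, had 15 and 17 in the controls, 22 and 33 under DZNep and 20 and 17 under shEZH2, and KLF16, a GC box binding member, had 11 and 7, 22 and 16, and 17 and 15. In both genes DZNep was above control, with log2 fold changes of 0.65 (limma adjusted p = 0.03) and 0.95 (adjusted p = 0.04). Both calls were fragile. KLF5 lost its call in 8 alternatives (adjusted p of 0.054 to 0.096), among them without either control replicate (0.063 and 0.074), without DZNep replicate 2 (0.096) and without either shEZH2 replicate (0.093). KLF16 lost its call in 7 (0.051 to 0.18), among them without control replicate 2 (0.17), without DZNep replicate 1 (0.18) and without either shEZH2 replicate (0.054). With shEZH2 the log2 fold change of KLF16 was 0.75 over all samples and did not pass (limma adjusted p = 0.16). It was 1.11 without control replicate 1. Among fits of all samples, only the one blocked on replicate number called KLF16 higher with shEZH2 (limma adjusted p = 0.0083). KLF6, a widely expressed member, had 182 and 207 in the controls, 169 and 216 under DZNep and 170 and 162 under shEZH2, with controls inside the DZNep range. KLF6, KLF11 and KLF13 did not pass in either contrast.

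**Figure D4:**
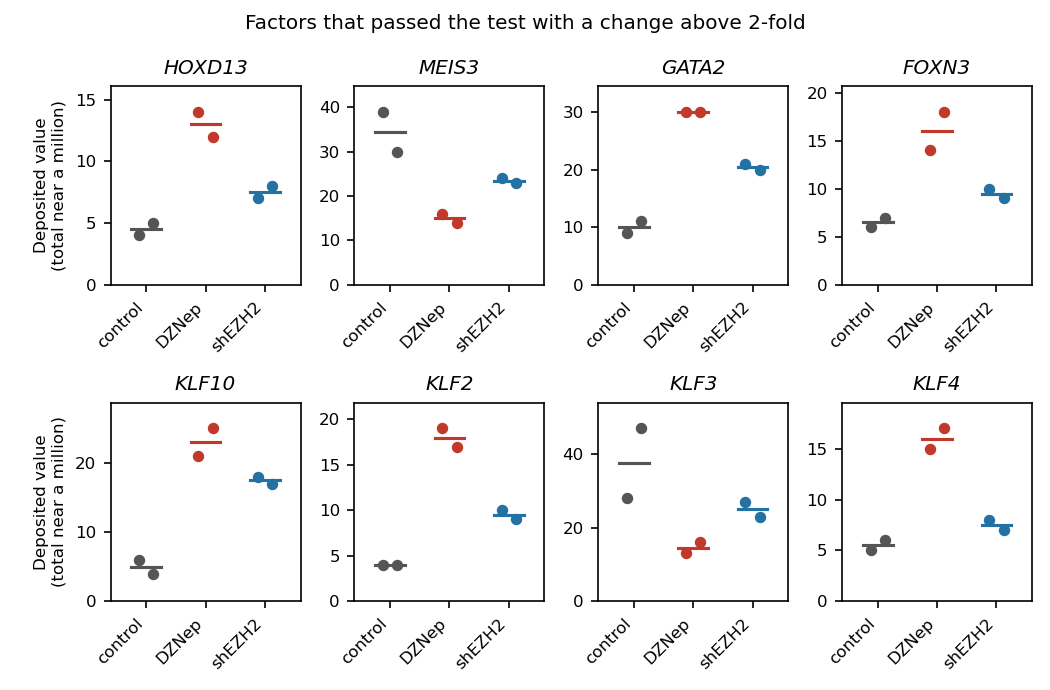
Each panel gives a member whose change passed the test with an absolute log2 fold change above 1, with the deposited value (vertical axis) in each sample as a point and the group mean as a line. In HOXD13, MEIS3, GATA2, FOXN3, KLF10, KLF2, KLF3 and KLF4 the shEZH2 points lie between control and DZNep.

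Compared directly, shEZH2 and DZNep cells differed in 3 members, all lower with shEZH2, and in 0 in the other direction (7 and 2 at an unadjusted p under 0.05), against 4.42% and 4.88% of all tested genes. With an absolute log2 difference above 1 in addition, 0 members passed either way, against 2% lower and 3.04% higher of all tested genes. The 3 were KLF4, at a log2 difference of -0.98 (SE 0.19, limma adjusted p = 0.022), KLF2 at -0.83 (SE 0.21, adjusted p = 0.049) and SOX4 at -0.76 (SE 0.19, adjusted p = 0.047). KLF4 reached 10 in DZNep samples only, so it was tested only through the group in which it was high. For KLF10 the difference was -0.35 (SE 0.24, adjusted p = 0.39) and for GATA2 -0.51 (SE 0.19, adjusted p = 0.13). All 3 calls were lost without either shEZH2 replicate, when the adjusted p was at least 0.22 for KLF4, 0.34 for KLF2 and 0.35 for SOX4. The log2 differences were -1.04, -0.88 and -0.83 without shEZH2 replicate 1 and -0.92, -0.79 and -0.69 without replicate 2, and calls over all genes fell from 472 higher and 427 lower to 47 and 45, and to 40 and 39. Without DZNep replicate 1 it was 0.11 for KLF2 and 0.053 for SOX4, while SOX12 passed (log2 difference 0.88, adjusted p = 0.047), and without DZNep replicate 2 it was 0.095 for SOX4, while HOXD13 passed (-0.92, adjusted p = 0.05). KLF3 passed without control replicate 1 or 2 (0.77, adjusted p = 0.029 in both).

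The limit on values let in genes through the samples in which they were high. In 8 members both control samples were under 10 (FOXN3, HOXB9, HOXD13, KLF10, KLF2, KLF4, LHX2 and SOX12), and HOXD13 and KLF4 reached 10 in DZNep samples only. Over the 17 members with at least 10 in all 6 samples, 3 were higher with DZNep (FOXO3, KLF5 and SOX4), 3 lower (KLF3, MEIS3 and PAX8), near the 22.4% and 20.4% of all tested genes, and 0 passed with shEZH2. Just inside the limit, HOXB9 and LHX2 reached at most 12 and 11. Just outside it, with 1 sample at 10 or more, were FOXO4, HOXB4, HOXD8, KLF12 and MEIS2. HOXB4 had 6 and 5 in the controls, 10 and 9 under DZNep and 6 and 7 under shEZH2, and MEIS2 had 7 and 10, 3 and 5, and 5 and 5.

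Genes that write, read or oppose the polycomb mark were counted beside the factors. Of 11 tested PRC2 subunits, 0 were higher and 2 lower with DZNep (EZH2 and PHF1), and with shEZH2 EZH2 alone was lower. Of 18 tested subunits of PRC1, the complex that reads the mark, 3 were higher with DZNep (CBX2, CBX6 and CBX8) and 2 lower (PCGF3 and PHC2), and 0 passed with shEZH2 (0 higher and 0 lower). Of 16 tested trithorax subunits, which oppose polycomb, 2 were higher with DZNep (CXXC1 and KDM6A), 3 lower (ASH2L, DPY30 and PSIP1), and 0 passed with shEZH2 (0 higher and 0 lower). CBX2, CBX8, PCGF3, CXXC1, KDM6A, ASH2L and DPY30 were named after their values were seen. The medians were -0.40 for PRC2, -0.04 for PRC1 and 0.10 for trithorax with DZNep, and -0.08, -0.09 and 0.19 with shEZH2. These shares can be set against the 22.4% higher and 20.4% lower of all tested genes with DZNep, and 3.91% and 4.53% with shEZH2. At the latter shares, 0 calls in lists of this size tell little.

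Relatives and partners of the members were also counted. Of 12 other homeobox factors tested, 6 were higher with DZNep and 2 lower (ZHX3 and HOMEZ), against 22.4% and 20.4% of all tested genes, and the median log2 fold change was 0.58. Of those higher, GBX2, NKX2-5, CDX2 and MNX1 had both controls under 10. These were tested only through treated samples, CDX2 through DZNep samples alone, so the limit on values shaped this count. With shEZH2 CDX2 was higher and HOMEZ lower, against 3.91% and 4.53%, and the median was 0.47. With the shEZH2 samples averaged neither passed (limma adjusted p = 0.31 and 0.30). The largest rise was that of NKX2-5, a heart factor, with values of 7 and 7 in the controls, 35 and 27 under DZNep and 14 and 14 under shEZH2, and CDX2, an intestinal factor that regulates HOX genes, had 3 and 2, 11 and 12, and 6 and 6. GBX2 and PITX1 also passed with a log2 fold change above 1 with DZNep. Of 4 tested TALE relatives and HOX cofactors outside the families, 0 were higher and 1 lower with DZNep (HMGB1). Of 3 SP factors, 3 partners of GATA and 1 partner of sine oculis factors, 0 passed in either contrast. The shares over all tested genes are those given above for the homeobox factors. The 3 listed long noncoding RNAs of the HOX clusters had values of at most 3 and were not tested.

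The identity of the cells was checked against marker genes. PAX8 was present as given above, and the epithelial keratins KRT8 and KRT18 had values of 1021 and 816, and 1392 and 1080, in control cells, whereas WT1, another serous marker, was at 1 to 2 in all samples and EPCAM, a surface marker of epithelia, at 5 to 12. Of the 10 listed epithelial markers 9 were in the matrix and 3 were tested. KRT8 and KRT18 were higher with DZNep, by 1.77 and 1.66 on the log2 scale (limma adjusted p = 0.00085 and 0.0013), while KRT7 did not pass (-0.08, adjusted p = 0.78). The others in the matrix had values of at most 12. Among them CLDN4 was at 6 and 5 in the controls and 2 and 1 under DZNep. ESRP2 was at 7 and 4, and 2 and 3, and the cadherin CDH1 at 1 and 0, and 7 and 8. MSLN, a serous marker, was lower, at -2.06 (limma adjusted p = 0.00048). FOLR1, also a serous marker, did not pass with DZNep (-0.34, limma adjusted p = 0.43) or shEZH2 (0.22, adjusted p = 0.7). WFDC2, on the same list, had values of 0 to 3. Of the 11 serous markers on that list only 5 were in the matrix. The summed values of the 9 epithelial markers, nearly all from the 3 keratins, were 3036 and 2420 in the controls, 8541 and 7364 under DZNep and 3449 and 3454 under shEZH2. Of the markers of other cell types in the matrix, the 2 endothelial markers were at 0 to 3, the leukocyte marker CD14 at 1 to 2, and the fibroblast marker LUM at 0 to 2. The summed level of the 2 leukocyte markers was 71 and 66, 19 and 17, and 33 and 30, nearly all of it CD68, and that of the 3 fibroblast markers was 25 and 28, 69 and 53, and 53 and 46. PDGFRB made up 12 and 11, 56 and 42, and 37 and 34 of it, while COL1A1 had 13 and 16, 12 and 9, and 16 and 11. In bulk samples fewer cells of a type and less RNA per cell cannot be told apart, and the part of these shifts in the members' changes was not tested.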

How the data were processed

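Reads of stranded, ribosomal RNA-depleted libraries had been trimmed by the authors with fastp, aligned to GRCh38 with STAR and quantified with RSEM (GENCODE v37 per the methods). The deposited table holds a score per gene and sample, which the authors had scaled to a common total and rounded to whole numbers, so counts, read depth and counting intervals are unknown. Groups and replicate numbers came from the labels.

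The authors' tool for changed genes needs read counts. Since the values were scaled, limma 3.58.1 in R 4.3.3 (lmFit, eBayes with a trend, two-sided, Benjamini-Hochberg over 9671 genes) was run on log2(value + 1) of all 6 samples in 1 fit, after unweighted TMM scaling (30% of log ratios and 5% of means trimmed at each end). The fit was tested on simulated data, with independent noise and the same spread in every group. That simulation held neither the shared variation of control and DZNep samples nor the closeness of the shEZH2 samples. It therefore cannot vouch for the p-values in these data. The members and gene lists were chosen with earlier results of these data known. Genes given with all values were the HOX members, those past the test with an absolute log2 fold change above 1, and the highest and most changed member of each family; FOXO3, KLF5 and KLF16 were added because their calls are named. Listed genes outside the families were named at the same thresholds or after their values were seen, the latter for counts of at most 5 and for genes under 10 in both controls. The main fit held no replicate term, as the sources do not say what a shared replicate number means. Control and DZNep samples of the same number varied together across genes (correlation of deviations from the group mean 0.79), which the p-values do not take into account. For the pairs with shEZH2 the correlation was -0.02 and -0.04. With the replicate number as a block, 11 members were higher and 4 lower with DZNep. Gene positions came from GENCODE v44. Promoters came from RefSeq. Plots used Python 3.11.15 and matplotlib 3.10.9. In all, 18 settings were compared: another scaling, filter, pseudocount, fit or call rule, and each replicate left out. Of the genes past the limit, 2 are not reported here, and some listed genes were likewise left out.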

Additional observations from a re-analysis of the deposited data

How the results depend on the processing

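With each replicate left out in turn, the members higher with DZNep numbered 7 to 10 and those lower 3 to 4, with shEZH2 0 to 4 and 0 to 1, and with shEZH2 against DZNep 0 to 1 and 0 to 3. The fold limit left 6 and 2 with DZNep and 0 lower with shEZH2 against DZNep, at adjusted and unadjusted p. That last count was 1 with no filter, 0 with a mean of at least 10 and 0 with the shEZH2 samples averaged, which also left 0 higher with shEZH2 (4 at an unadjusted p under 0.05). Fitting only the groups compared gave 4 higher with shEZH2, SOX12 among them, and 1 higher with shEZH2 than with DZNep. With the replicate number as a block, which assumes a difference the shEZH2 samples did not show, 6 were higher and 3 lower with shEZH2, and 2 higher and 5 lower with shEZH2 against DZNep; the cause was not tested. On the values as deposited, the calls over all genes with shEZH2 split 812 higher to 418 lower (66% higher), against 378 to 438 (46.3%).

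Signs that turned when a replicate was left out were of changes that did not pass. With DZNep, TBX18 ran from -0.458 to 0.299 (0.013 without control replicate 2) and LHX2 from -0.027 to 0.158. With shEZH2, SOX4 ran from -0.016 to 0.125 and LHX2 from -0.265 to 0.145. In shEZH2 against DZNep, SIX4 ran from -0.092 to 0.332, HOXB9 from -0.096 to 0.377, SOX12 from -0.25 to 0.884, LHX2 from -0.331 to 0.079 and TBX18 from -0.408 to 0.349 (0.05 without shEZH2 replicate 2). Rounding and 2 replicates limit genes at low values.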

Other observations

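The listed symbols of these families under the limit on values, HOX genes included, were counted in the same way. The counts and medians below include the 26 HOX genes given above, and 12 of the 22 calls higher with DZNep are HOX genes. They are thus no separate result beyond HOX. In the fit with no filter, 22 of the 71 were higher with DZNep and 3 lower (KLF14, KLF15 and MEIS2), against 18.3% and 17.2% of all genes in that fit. With shEZH2 1 was higher (SOX15) and 0 lower, against 2.28% and 2.66%, and with the shEZH2 samples averaged, an alternative chosen after seeing the data, SOX15 did not pass (limma adjusted p = 0.38). Those higher with DZNep, besides 12 HOX genes, were FOXD3, FOXL1, FOXO1, GATA6, KLF7, LHX6, PAX9, SOX15, SOX30 and TBX3, which act in neural crest, gut, heart, limb and other tissues. The median log2 fold change of the 71 was 0.56 with DZNep and 0.29 with shEZH2. All are named as a description, after their values were seen. Many of these values are small whole numbers, as in SOX15, with 0 and 0 in the controls, 2 and 2 under DZNep and 1 and 1 under shEZH2. Such values are coarse after rounding, and the part of rounding in these calls was not tested.

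Of 10 tested basic helix-loop-helix and HES/ID factors, another class of developmental regulators, 6 were higher with DZNep and 1 lower (TCF12), against 22.4% and 20.4% of all tested genes, and 2 were higher with shEZH2 (ID3 and HES4), against 3.91%. With the shEZH2 samples averaged neither passed (limma adjusted p = 0.11 and 0.19). ID3, an inhibitor of helix-loop-helix factors induced by BMP signalling, had values of 4 and 5 in the controls, 85 and 71 under DZNep and 14 and 16 under shEZH2. The change was 3.78 on the log2 scale with DZNep (limma adjusted p = 5.5e-05) and 1.5 with shEZH2 (adjusted p = 0.014). HES4, a target of Notch signalling, had 38 and 40 in the controls, 124 and 101 under DZNep and 97 and 81 under shEZH2. Of the factors higher with DZNep, ID3, HES1 and MSC had both controls under 10. These were tested only through treated samples, HES1 and MSC through DZNep samples alone, so the limit on values shaped this count too.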
